A study of Homo sapiens with 6 samples.

Results

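The genes described here encode enzymes and binding proteins that write, erase and read marks on histones, together with the SWI/SNF chromatin remodelers and their relatives. They were taken from the deposited table by gene symbol: every HDAC, SIRT, SETD and BRD symbol followed by a number, every KDM, KMT and ARID symbol followed by a number and a letter, every SMARC symbol followed by a letter and a number, and EZH1, EZH2, EED, SUZ12, EP300, CREBBP and DOT1L. Protein-coding genes only were kept, which gave 81 of the 17211 listed genes. KMT2B, KDM4E, KDM4F and ARID3C fit the same symbols but were not found among the named identifiers, and 468 identifiers had no name. All 81 passed the filter on low values, and only SIRT4 and KDM4D had a mean under 50 normalized reads.

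RNA was sequenced from CAOV2, a human ovarian cancer line that the labels also call primary cancer cells, in 2 groups of 3 libraries. The siTAZ group received 100 pmol of siRNA against TAZ, the Hippo pathway coactivator encoded by WWTR1, and the siNT group the same amount of a non-targeting siRNA. Both groups were transfected for 2 days with 6 µL of the same lipid reagent and collected on day 3. The labels give 1 catalogue item for the TAZ siRNA and 1 cell line, so an effect of TAZ loss and an effect of that reagent cannot be told apart. The titles call the libraries biological replicates, and nothing says whether they came from separate cultures, so p-values measure the spread between these libraries.

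Histone acetyltransferases and deacetylases add and remove acetyl groups on lysines, and bromodomain proteins bind the acetylated form. Lysine methyltransferases and demethylases do the same for methyl groups, with meanings that depend on the residue: methylation of lysine 4 on histone H3 (H3K4) marks active promoters and enhancers, and that of lysine 27 (H3K27), placed by polycomb repressive complex 2, marks silenced genes. SWI/SNF complexes use ATP to slide or evict nucleosomes, and subunits such as ARID1A are often mutated in some kinds of ovarian cancer.

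Values are normalized reads: the reads of a library over its size factor. The libraries held 25478595 to 34488196 recovered reads. WWTR1 fell 16.1-fold, from 4278 ± 73.2 in siNT to 266 ± 21 in siTAZ (SD, n = 3 each). Of 9 listed epithelial markers, 5 were higher and 2 lower, beside 28.3% higher and 27.5% lower among all genes tested. Keratins 7, 8, 18 and 19 were abundant, and KRT7 fell from 22847 ± 1266 to 8604 ± 879, while EPCAM rose from 501 ± 10.3 to 1361 ± 42 and CDH1 from 256 ± 15.6 to 579 ± 15. In contrast, the ovarian markers PAX8 and MUC16 lay under 50 normalized reads in every library and WT1 was not listed. MSLN, 1 of the 5 that were higher, was also scarce, at 1.05 to 3.63 in siNT and 5.51 to 11.4 in siTAZ. None of 5 endothelial markers and 3 of 8 leukocyte markers were listed, the latter summing to 137 to 145 in siNT and 268 to 318 in siTAZ. Fibroblast markers were listed in 6 of 7 cases and summed to 5609 to 6399 in siNT and 6614 to 7502 in siTAZ. LUM was the most abundant of them, with means of 3797 and 3885, and did not pass. Of these markers 3 were higher and 1 lower, beside the same shares of all genes. The part of the fibroblast markers in the results was not tested. Replicate 1 stood apart in both groups. The chi-square per degree of freedom between its reads and those of the other 2 libraries was 5.18 and 6.30 in siNT and 7.15 and 8.10 in siTAZ, against 2.64 and 2.80 between replicates 2 and 3.

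The groups were compared to see which transcripts respond to TAZ silencing. Of the 81 genes, 30 were higher and 15 lower in siTAZ at an adjusted p under 0.05 in limma, and 36 did not pass. The called share, 55.6%, lay next to the 55.8% called among all 17204 genes tested. Rises made up 37.0% of the members against 28.3% of all genes, and falls 18.5% against 27.5%. The median log2 fold change was 0.09 for the members and 0.00 for all genes. The changes were small: 5 members passed and moved at least 1.5-fold (6.17%, against 22.2% of all genes). SETD7, EZH1, HDAC5 and SMARCD3 rose by that much (13.0% of all genes did) and KMT5A fell (9.24%). These genes are well expressed, with a median of 2057 normalized reads against 477 over all genes, and fewer well-expressed genes moved 1.5-fold. At a mean of 1000 or above, 11.8% of genes were called and moved that far, and 68.3% were called at any size, 30.0% higher and 38.4% lower. Of the 58 members at that level 34 were called (58.6%), 24 higher and 10 lower. Only SETD7 and KMT5A among these 58 were called and moved at least 1.5-fold. The libraries of the 2 groups did not overlap in 52 members, 35 higher and 17 lower (64.2%, against 61.4% of all genes, 31.1% higher and 30.3% lower). Without replicate 1 of both groups, 31 members were higher and 18 lower, and the called share of all genes was 59.3% (5176 higher and 5031 lower).

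**Figure D1:**
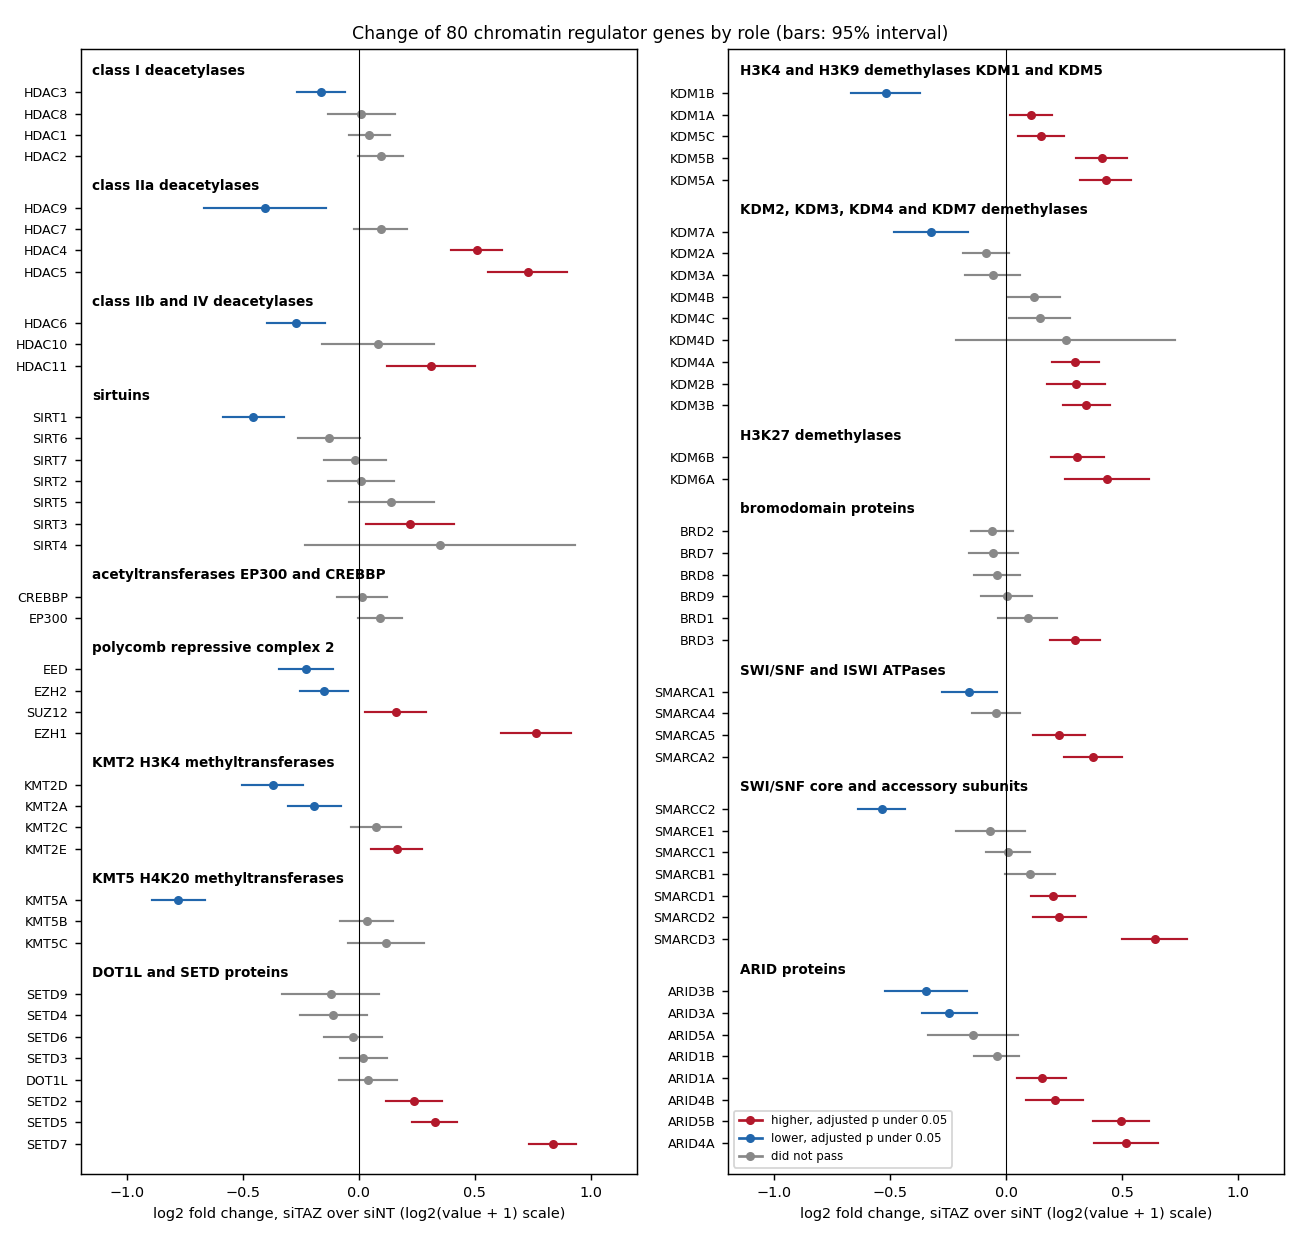
Log2 fold change of 80 of the 81 genes, siTAZ over siNT, grouped by role, on the log2(value + 1) scale. Points are limma estimates and bars their 95% intervals. Red genes were higher, blue genes lower, and grey genes did not pass. SETD7 (0.84) and KMT5A (-0.78) lie at the ends of the range.

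**Figure D2:**
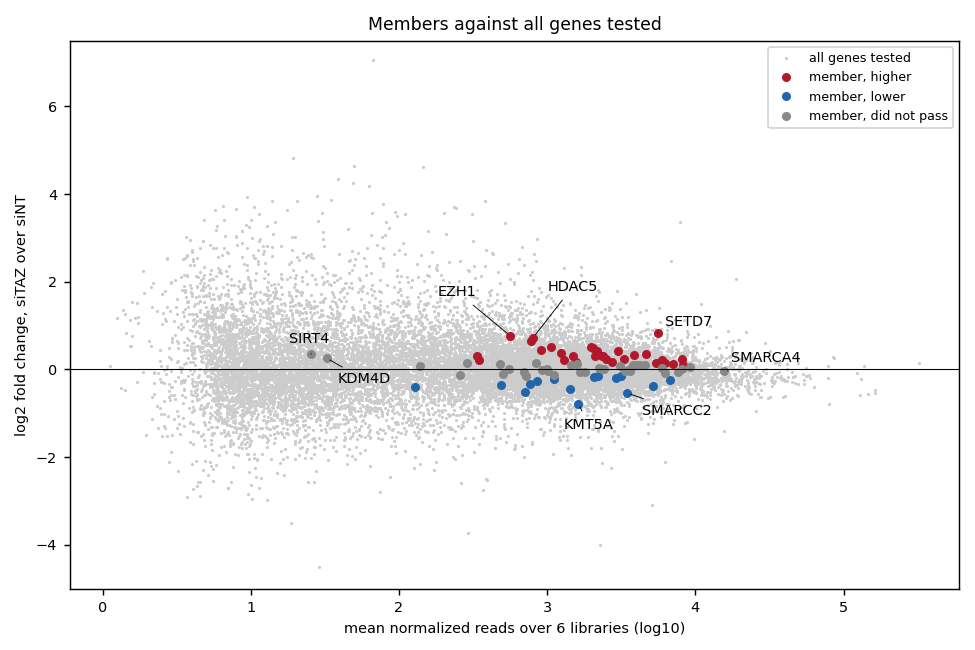
Log2 fold change (siTAZ over siNT) against the mean of the normalized reads over 6 libraries (log10). All 17204 genes tested are small light grey points and the 81 members larger points. Members are red where higher, blue where lower and darker grey where they did not pass. The members lie mostly to the right, with a median mean of 2057, and close to 0.

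Promoter sequences are shown for 4 genes: SETD7 and KMT5A, the ends of the range, and EZH1 and EZH2, the related pair whose ratio changed most. Each runs from 250 bases before to 50 bases after the RefSeq start on the gene's own strand, on GRCh38.p14. SETD7 is at chr4:139556170-139556469 on the minus strand, KMT5A at chr12:123383882-123384181 on the plus strand, EZH1 at chr17:42744991-42745290 on the minus strand and EZH2 at chr7:148884242-148884541 on the minus strand. Capitals mark matches, on either strand, to 4 motifs: GGAATG for TEAD factors, the DNA-binding partners of TAZ, TGANTCA for AP-1, TTTNNCGC for E2F and CCAAT for the CCAAT box.
SETD7: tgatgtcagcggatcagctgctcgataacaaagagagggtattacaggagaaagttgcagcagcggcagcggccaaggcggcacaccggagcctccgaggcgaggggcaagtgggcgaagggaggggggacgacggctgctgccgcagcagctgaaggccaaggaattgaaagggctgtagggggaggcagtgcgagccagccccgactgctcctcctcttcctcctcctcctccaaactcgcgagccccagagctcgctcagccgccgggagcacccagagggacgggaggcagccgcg
KMT5A: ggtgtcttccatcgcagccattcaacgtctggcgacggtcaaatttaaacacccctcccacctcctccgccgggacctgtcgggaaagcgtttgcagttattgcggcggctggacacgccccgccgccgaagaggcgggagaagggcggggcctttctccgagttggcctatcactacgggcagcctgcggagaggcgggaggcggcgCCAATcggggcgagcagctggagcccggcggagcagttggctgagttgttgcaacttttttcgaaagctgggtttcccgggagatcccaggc
EZH1: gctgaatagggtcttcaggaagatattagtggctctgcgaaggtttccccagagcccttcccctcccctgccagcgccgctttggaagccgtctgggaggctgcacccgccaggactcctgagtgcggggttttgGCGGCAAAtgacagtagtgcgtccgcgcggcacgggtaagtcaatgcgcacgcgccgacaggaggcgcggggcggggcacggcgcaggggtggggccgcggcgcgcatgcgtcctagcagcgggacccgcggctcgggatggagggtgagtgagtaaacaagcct
EZH2: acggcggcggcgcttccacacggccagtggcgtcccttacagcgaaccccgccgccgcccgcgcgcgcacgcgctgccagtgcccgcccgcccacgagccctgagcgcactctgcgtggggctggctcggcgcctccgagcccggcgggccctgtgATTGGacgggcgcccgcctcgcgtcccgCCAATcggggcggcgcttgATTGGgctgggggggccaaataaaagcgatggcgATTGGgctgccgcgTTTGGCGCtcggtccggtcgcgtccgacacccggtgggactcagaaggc

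The EZH2 window holds 4 CCAAT matches, CCAAT once and its reverse ATTGG 3 times, and 1 E2F match, TTTGGCGC, that starts at base 2 after the start. The EZH1 window holds 1 E2F match on the opposite strand, and that of KMT5A 1 CCAAT box. These letters do not occur in the SETD7 window. The RefSeq table held promoters for 73 of the 81 members and, among others, not for ARID3A, ARID3B, DOT1L, HDAC5, SIRT7, SMARCC1 and SMARCC2. The TEAD letters occurred in 2 of the 73 (2.74%), those of EED, which was lower, and HDAC8, which did not pass, against 10.9% of the 11721 tested genes with a promoter in the table and 14.0% of all 35116 promoters. The AP-1 letters occurred in 6.85% of the members (4.84% of tested genes, 7.71% of all promoters) and the E2F letters in 11.0% (10.0% and 6.89%). The CCAAT letters occurred in 35.6% (36.2% and 34.6%). The members' promoters had a median GC content of 68.7%, against 65.3% for the tested genes and 58.7% for all promoters. For each member and tested gene the first window listed was used, and any other start of the gene was not searched. The 35116 promoters were not reduced in this way. A match is a description of the letters in these windows only.

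Among the deacetylases, the class IIa enzymes moved most. HDAC5 and HDAC4, which shuttle between nucleus and cytoplasm and hold back MEF2 transcription factors, both rose. HDAC5 read 549, 689 and 581 in siNT and 1075, 961 and 967 in siTAZ, a rise of 1.65-fold (0.73 in log2 with an SE of 0.08, adjusted p = 7.7e-07 in limma). HDAC4 read 1647, 1576 and 1694 in siNT and 2364, 2375 and 2252 in siTAZ (0.51 in log2 with an SE of 0.05, adjusted p = 2.8e-07 in limma). The groups did not overlap for either gene. HDAC9, the scarcest of the class, fell from 146 ± 3.28 to 111 ± 15.2 (-0.41 in log2, adjusted p = 0.010 in limma), a call lost without siTAZ replicate 1 (0.056). HDAC7 did not pass (0.09, 95% interval -0.02 to 0.21).

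The class I deacetylases moved little. HDAC1 and HDAC2 are the catalytic subunits of the NuRD, Sin3 and CoREST corepressor complexes, and HDAC3 that of NCoR. HDAC1 had the highest level per kilobase of exon of all the members in siNT, at 2285 normalized reads per kb, and read 9205, 8926 and 9039 in siNT and 9399, 9259 and 9356 in siTAZ. Its libraries did not overlap, but the log2 fold change was only 0.04 (95% interval -0.04 to 0.13, limma adjusted p = 0.39). HDAC2 did not pass either (0.09, 95% interval -0.00 to 0.19), and it passed as higher without siTAZ replicate 1 (0.037). HDAC3 fell from 2174 ± 14.6 to 1941 ± 59.3 (-0.16 in log2, adjusted p = 0.0091 in limma). It did not hold without siTAZ replicate 2 (0.061) or with total count scaling (0.060). HDAC8 was level at 547 ± 1.25 and 552 ± 29.1, which did not differ beyond their spread. Of the others, HDAC6, the tubulin deacetylase, fell to 770.5 ± 4.47 from 931 ± 37.8, HDAC11 rose from 300.3 ± 30.7 to 372 ± 20.4, and HDAC10 did not pass. Exons of HDAC10 are shared with MAPK12 over 55.8% of their length, so its reads are uncertain.

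Of the 7 sirtuins, the NAD-dependent deacylases, SIRT1 fell, SIRT3 rose and 5 did not pass. Over all genes tested, 28.3% were higher and 27.5% lower. SIRT1, the nuclear member that acts on histones and transcription factors, read 1658, 1605 and 1653 in siNT and 1087, 1229 and 1275 in siTAZ. Every siTAZ library was below every siNT library (1.37-fold lower, -0.46 in log2 with an SE of 0.06, adjusted p = 8.1e-06 in limma). The mitochondrial SIRT3 gave 319 ± 20.2 and 373 ± 37.6, and its call (limma adjusted p = 0.047) was lost in 7 of 16 alternatives, among them leaving out siNT replicate 3 (0.18), siTAZ replicate 1 (0.17) or siTAZ replicate 2 (0.11). SIRT3 shares 6.07% of its exon length with the more abundant PSMD13 on the opposite strand (5227 normalized reads in siNT), which fell (-0.21). SIRT4 was scarce, with 14.5 to 26.7 normalized reads in siNT and 20.8 to 33 in siTAZ, and its groups overlapped. SIRT6, a chromatin-bound sirtuin, did not pass (-0.13, 95% interval -0.26 to 0.00), but passed as lower without siTAZ replicate 1 (0.00661).

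The paired acetyltransferases EP300 and CREBBP, broad coactivators of transcription, did not pass. CREBBP read 3397, 3669.5 and 3747 in siNT and 3747, 3608 and 3549.7 in siTAZ, with a log2 fold change of 0.01 (95% interval -0.09 to 0.12). EP300 read 3993, 4194 and 4167 in siNT and 4391, 4428 and 4339 in siTAZ. The EP300 groups did not overlap, and the log2 fold change of 0.09 had an adjusted p of 0.095 in limma (0.0096 with total count scaling).

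All 4 genes of polycomb repressive complex 2 taken here by name were called, with opposite signs. Over all genes 55.8% were called, and 68.3% of those with a mean of at least 1000. Other subunits of the complex stand among the related genes below. EZH2 is the main H3K27 methyltransferase of dividing cells, and EZH1 its relative, prominent in resting tissue. EZH1 (ENSG00000108799) read 431, 428 and 392 in siNT and 691, 748 and 688 in siTAZ. That is a rise of 1.70-fold, with no overlap (0.77 in log2 with an SE of 0.07, adjusted p = 9.9e-08 in limma). EZH2 (ENSG00000106462) read 3396, 3254 and 3278 in siNT and 2846, 3078 and 3029 in siTAZ (-0.15 in log2 with an SE of 0.05, adjusted p = 0.015 in limma). Its fall was small, and it did not pass with total count scaling (0.11). EED, which binds the finished mark, fell from 1207 ± 24.6 to 1029.8 ± 21.2 (-0.23 in log2, adjusted p = 0.0018 in limma). SUZ12, the scaffold subunit, gave 1477 ± 107 and 1648 ± 87.3 with overlapping libraries. Its call as higher (0.16, limma adjusted p = 0.039) was lost when replicate 2 (0.082) or 3 (0.21) of siNT, or replicate 2 (0.15) or 3 (0.12) of siTAZ, was left out. A partial copy, SUZ12P1, is listed at 226 normalized reads in siNT, so part of the SUZ12 reads could be its own.

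Within each library, EZH2 exceeded EZH1 per kilobase of exon by 12.2, 11.8 and 12.9 times in siNT and by 6.36, 6.36 and 6.80 times in siTAZ. The ratio was therefore lower by 0.91 on the log2 scale in siTAZ, the largest shift among 10 pairs of related genes. Markers of cell division moved the same way as EZH2: of 29 listed, 23 were lower and 2 higher, and their summed normalized reads were 177213 to 182142 in siNT and 147704 to 151435 in siTAZ. MKI67 was 1 of the 2 that were higher. Over all genes, 27.5% were lower and 28.3% higher. At a mean of at least 1000, where 27 of the 29 markers lay, 38.4% were lower and 30.0% higher. The part of cell division in the EZH2 and KMT5A results was not tested.

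Among the methyltransferases, SETD7 and KMT5A were the ends of the range. SETD7 (ENSG00000145391) adds 1 methyl group to H3K4 and to many other proteins, and YAP is a described substrate. It read 4132, 3913 and 3924 in siNT and 6808, 7189 and 7367 in siTAZ, so that all siTAZ libraries lay far above the siNT libraries (1.78-fold, 0.84 in log2 with an SE of 0.05, adjusted p = 2.4e-10 in limma). KMT5A (ENSG00000183955), the enzyme that places the first methyl group on lysine 20 of histone H4 and is tied to mitosis, read 1923, 2106 and 2121 in siNT and 1192, 1197 and 1191 in siTAZ. The siTAZ values were nearly identical, and the fall was 1.72-fold (-0.78 in log2 with an SE of 0.05, adjusted p = 3.1e-09 in limma). KMT5B and KMT5C, which add the further methyl groups, did not pass (0.03, 95% interval -0.08 to 0.15, and 0.12, 95% interval -0.05 to 0.28).

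The other SETD genes were mixed. SETD5 rose from 3433 ± 18.1 to 4305 ± 122 (0.33 in log2 with an SE of 0.05, adjusted p = 1.1e-05 in limma), and SETD2, which trimethylates lysine 36 of histone H3, from 2302 ± 102 to 2717 ± 186 (0.24, limma adjusted p = 0.0020). SETD3, an actin histidine methyltransferase in spite of its name, did not pass at 2384 ± 14.5 and 2417 ± 64.3, nor did SETD4, SETD6 and SETD9. The reads of SETD6 are uncertain, since 21.4% of its exon length is shared with CNOT1 on the opposite strand. CNOT1 was far more abundant, at 14033 normalized reads in siNT. DOT1L, the H3K79 methyltransferase, read 5504 to 6047 in siNT and 5597 to 6599.9 in siTAZ, with overlapping groups and a log2 fold change of 0.04 (95% interval -0.09 to 0.16). It shares 11.5% of its exon length with other annotated genes, among them PLEKHJ1 on the opposite strand, which fell (-0.37).

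The KMT2 genes encode large H3K4 methyltransferases. KMT2D, an enhancer enzyme, read 5263, 6123 and 6102 in siNT and 4846, 4403 and 4253 in siTAZ. It fell without overlap by 0.37 on the log2 scale (SE 0.06, limma adjusted p = 7.3e-05). KMT2A fell from 3096 ± 158 to 2708 ± 138 (-0.19 in log2, adjusted p = 0.0057 in limma), a call lost at 0.0505 without siNT replicate 3. KMT2C, the close relative of KMT2D, did not pass, at 3005 ± 152 and 3158 ± 82.4 (0.07, 95% interval -0.03 to 0.18). KMT2E, which lacks clear methyltransferase activity, rose from 2567 ± 67.1 to 2876 ± 145 (0.16, limma adjusted p = 0.013). It did not hold without siNT replicate 2 (0.056), siTAZ replicate 2 (0.065) or siTAZ replicate 3 (0.068).

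Lysine demethylases were called higher in 9 of 16 cases and lower in 2, with a median log2 fold change of 0.20. Among all genes tested 28.3% were higher and 27.5% lower. The KDM5 enzymes, which remove methyl groups from H3K4, rose in each of KDM5A, KDM5B and KDM5C. KDM5A read 2573, 2543 and 2512 in siNT and 3216, 3454 and 3613 in siTAZ (0.43 in log2 with an SE of 0.05, adjusted p = 2.0e-06 in limma). KDM5B read 1824, 1857 and 1859 in siNT and 2326, 2468 and 2584 in siTAZ (0.41 in log2 with an SE of 0.05, adjusted p = 3.7e-06 in limma). Neither overlapped between the groups. KDM5C rose less, from 5915 ± 155 to 6569 ± 271 (0.15, limma adjusted p = 0.011).

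The flavin-dependent KDM1 enzymes were called in opposite directions. KDM1B read 842, 844 and 827 in siNT and 528, 605 and 623 in siTAZ, the largest fall among the demethylases (-0.52 in log2 with an SE of 0.07, adjusted p = 7.9e-06 in limma). KDM1A (LSD1), the CoREST demethylase and the member with the next highest level per kilobase after HDAC1 in siNT, was called only narrowly, at 7982 ± 81.2 and 8594 ± 187 (0.11, limma adjusted p = 0.044). Leaving out siNT replicate 1 (0.056), 2 (0.13) or 3 (0.099), or siTAZ replicate 2 (0.094) or 3 (0.18), ended that call.

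Both KDM6 genes, which encode H3K27 demethylases, rose. KDM6A (UTX) read 857, 685 and 773 in siNT and 914, 1095 and 1116 in siTAZ (0.43 in log2 with an SE of 0.09, adjusted p = 0.00037 in limma). KDM6B (JMJD3) read 1817, 1922 and 1901 in siNT and 2427, 2379.9 and 2177 in siTAZ (0.31 in log2, adjusted p = 0.00013 in limma). The groups were apart for both, though the highest siNT library and the lowest siTAZ library of KDM6A lay close together. Of the 9 KDM2, KDM3, KDM4 and KDM7 genes, 3 rose, KDM7A fell and 5 did not pass. Over all genes, 28.3% were higher and 27.5% lower. KDM3B, an H3K9 demethylase, rose from 4062 ± 138 to 5163 ± 172 (0.35, SE 0.05, limma adjusted p = 9.0e-06), KDM2B from 1337 ± 97.2 to 1645 ± 52.3 and KDM4A from 2102 ± 43.1 to 2586 ± 15.7. KDM4A is uncertain, since 48.5% of its exon length is shared with other annotated genes, although the listed one, KDM4A-AS1, had only 23.3 normalized reads in siNT. KDM7A fell from 848 ± 26.5 to 680.2 ± 73.6. KDM2A, KDM3A, KDM4B, KDM4C and KDM4D did not pass, and KDM4D was scarce, at 22.4 to 36.3 in siNT and 31.2 to 40.1 in siTAZ. KDM4C passed as higher in 4 of 16 alternatives, KDM4B as higher in 2 and KDM2A as lower in 2.

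**Figure D3:**
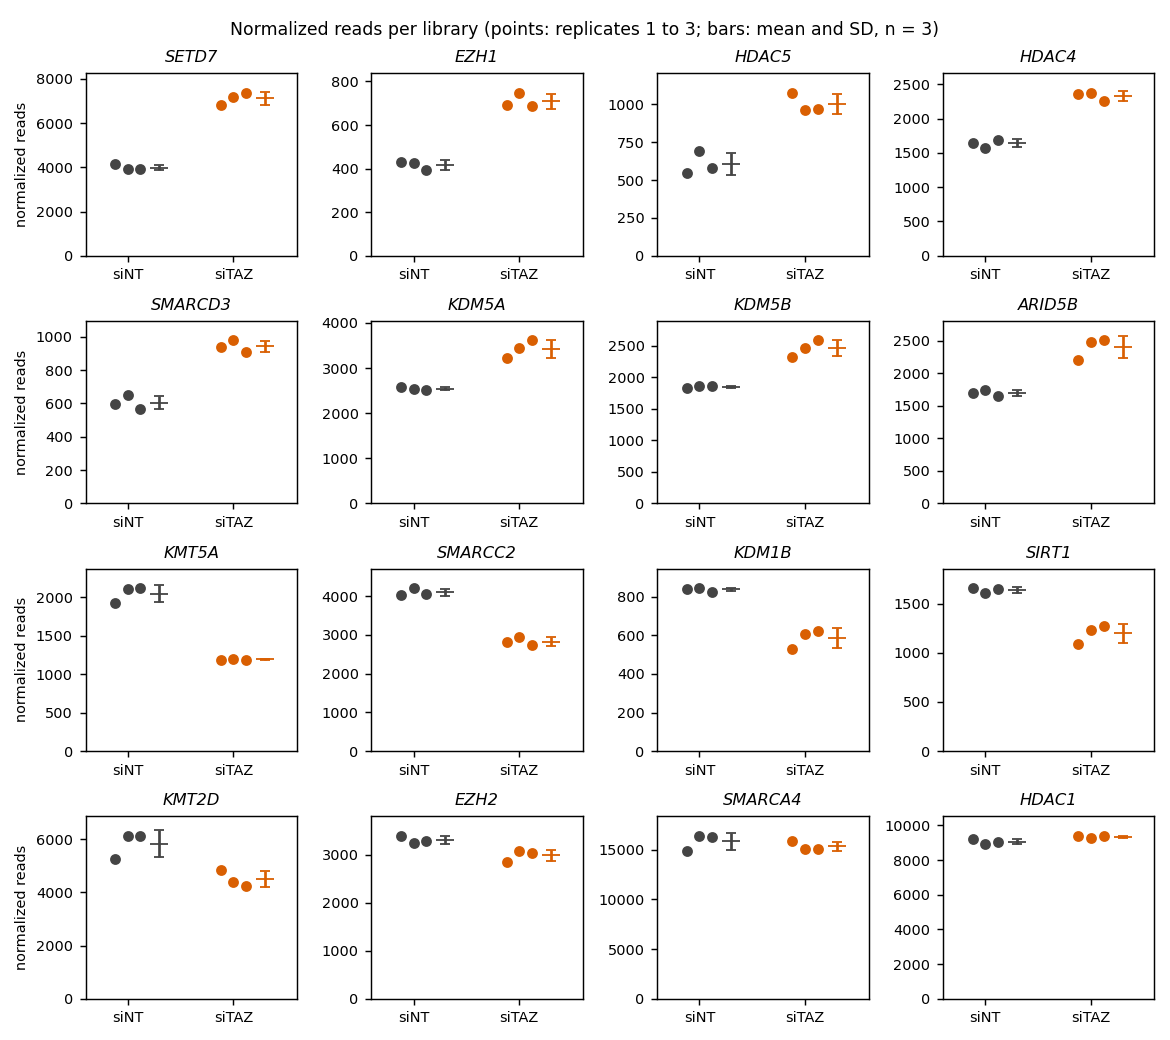
Normalized reads of 16 members in each library, with replicates 1 to 3 as points and the mean and SD (n = 3) beside them. The vertical axes start at 0. SETD7, EZH1, HDAC5, HDAC4, SMARCD3, KDM5A, KDM5B and ARID5B are higher in all siTAZ libraries, and KMT5A, SMARCC2, KDM1B, SIRT1, KMT2D and EZH2 lower in all. SMARCA4 overlaps, and HDAC1 differs by a log2 fold change of 0.04.

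Among the bromodomain genes, BRD3 rose. BRD3, a BET protein that binds acetylated histones, read 2069, 2250.0 and 2133 in siNT and 2711, 2586 and 2633 in siTAZ (0.30 in log2 with an SE of 0.05, adjusted p = 8.7e-05 in limma). It shares 18.6% of its exon length with BRD3OS on the opposite strand, which did not pass (0.11). BRD2, another BET gene, did not pass at 7797 ± 92.1 and 7475 ± 166 (-0.06, 95% interval -0.15 to 0.03). BRD1, BRD7, BRD8 and BRD9 did not pass either. The reads of BRD7 are uncertain, since 42.4% of its exon length is shared with other annotated genes. Among these is ADCY7 on the opposite strand, at 3749 normalized reads in siNT.

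SWI/SNF remodelers carry 1 of 2 alternative ATPases, SMARCA4 (BRG1) or SMARCA2 (BRM). SMARCA4 was the most abundant member in normalized reads, with 14857, 16401 and 16231 in siNT and 15889.9, 15051 and 15071 in siTAZ. The groups overlapped and the gene did not pass (log2 fold change -0.04, 95% interval -0.15 to 0.06). Without replicate 1 of both groups it was called lower (-0.12, limma adjusted p = 0.0014). SMARCA2 read 1076, 1036 and 1096 in siNT and 1298, 1424 and 1444 in siTAZ, a rise of 1.30-fold without overlap (0.38 in log2 with an SE of 0.06, adjusted p = 3.8e-05 in limma). The ISWI ATPases, which space nucleosomes and are not SWI/SNF subunits, went apart. SMARCA5 rose from 7481 ± 311 to 8776 ± 586 (0.23, limma adjusted p = 0.0014). SMARCA1 gave 2305 ± 104 and 2066 ± 129 (-0.16, limma adjusted p = 0.025), a call lost without siNT replicate 1 (0.086), siNT replicate 2 (0.063) or siTAZ replicate 1 (0.094).

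Among the SWI/SNF core subunits, SMARCC2 fell and its close relative SMARCC1 did not pass. SMARCC2 (BAF170) read 4032, 4211 and 4065 in siNT and 2813, 2943 and 2731 in siTAZ, 1.45-fold lower with no overlap (-0.54 in log2 with an SE of 0.05, adjusted p = 6.0e-08 in limma). SMARCC2 shares 6.01% of its exon length with MYL6 on the opposite strand. MYL6 was far more abundant (25394 normalized reads in siNT) and also fell (-0.36). The strand setting is not known, so the SMARCC2 values are uncertain, and the share of its reads concerned was not measured. SMARCC1 (BAF155) read 8138, 7969 and 8131 in siNT and 7835, 8128 and 8398 in siTAZ (0.01, 95% interval -0.09 to 0.10). The SMARCD genes encode alternative BAF60 subunits, and all 3 rose, where 28.3% of all genes tested were higher. SMARCD3, the form known from heart and muscle, read 596, 648 and 569 in siNT and 940.3, 977 and 907 in siTAZ (1.56-fold, 0.64 in log2 with an SE of 0.07, adjusted p = 3.8e-07 in limma). SMARCD3 shares 13.8% of its exon length with genes on the opposite strand, among them CHPF2, which fell slightly (-0.13). SMARCD1 and SMARCD2 rose by less, to 6330.3 ± 182 from 5496 ± 111 and to 3577 ± 179 from 3051 ± 158. SMARCB1 (0.10, 95% interval -0.01 to 0.21) and SMARCE1 did not pass.

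The ARID genes share a DNA-binding domain, but only ARID1A and ARID1B of those taken here as members are SWI/SNF subunits. ARID2, whose symbol has no letter after the number, was placed in the list of other SWI/SNF subunits below. ARID1A gave 5113 ± 309 and 5677 ± 101 (0.15, limma adjusted p = 0.016), a call lost without siNT replicate 1 (0.083), and ARID1B did not pass at 3668 ± 108 and 3567 ± 25.7 (-0.04, 95% interval -0.14 to 0.06). ARID4A, a Sin3 partner that binds the retinoblastoma protein, read 916, 857 and 823 in siNT and 1154, 1318 and 1249 in siTAZ (0.52 in log2 with an SE of 0.06, adjusted p = 3.3e-06 in limma). ARID5B, a partner of the demethylase PHF2, read 1702, 1737 and 1654 in siNT and 2204, 2488 and 2506 in siTAZ (0.50 in log2 with an SE of 0.06, adjusted p = 1.2e-06 in limma). Both were higher in all siTAZ libraries. ARID4B also rose (0.21), whereas ARID3A and ARID3B fell (-0.24 and -0.35). ARID5A did not pass (-0.14), but passed as lower without siNT replicate 1 (0.026) or siTAZ replicate 1 (0.020).

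Ratios of related genes within a library do not depend on the size factor. The 10 pairs were tested with a two-sided exact permutation test over the 6 libraries, in which 3 against 3 cannot give a p below 0.10, so no pair could pass. The groups did not overlap in 6 pairs, each with a permutation p of 0.10 and 0.167 after adjustment over the 10 pairs. For single genes, 61.4% of all those tested did not overlap, and the share over other pairs of genes was not computed. The SMARCC1 to SMARCC2 ratio per kilobase of exon rose from 2.26, 2.12 and 2.24 in siNT to 3.12, 3.09 and 3.44 in siTAZ. It carries the uncertainty of the SMARCC2 reads given above. That of SMARCA4 to SMARCA2 was 16.3, 18.7 and 17.5 in siNT and 14.4, 12.5 and 12.3 in siTAZ, so SMARCA4 stayed in large excess. KMT2C to KMT2D went from 0.528 ± 0.052 to 0.717 ± 0.057 (SD, n = 3) and ARID1A to ARID1B from 3.91 ± 0.13 to 4.46 ± 0.083. EZH2 to EZH1, described above, was another of the 6. The groups overlapped for EP300 to CREBBP, HDAC1 to HDAC2, KDM6A to KDM6B and KMT5B to KMT5C.

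**Figure D4:**
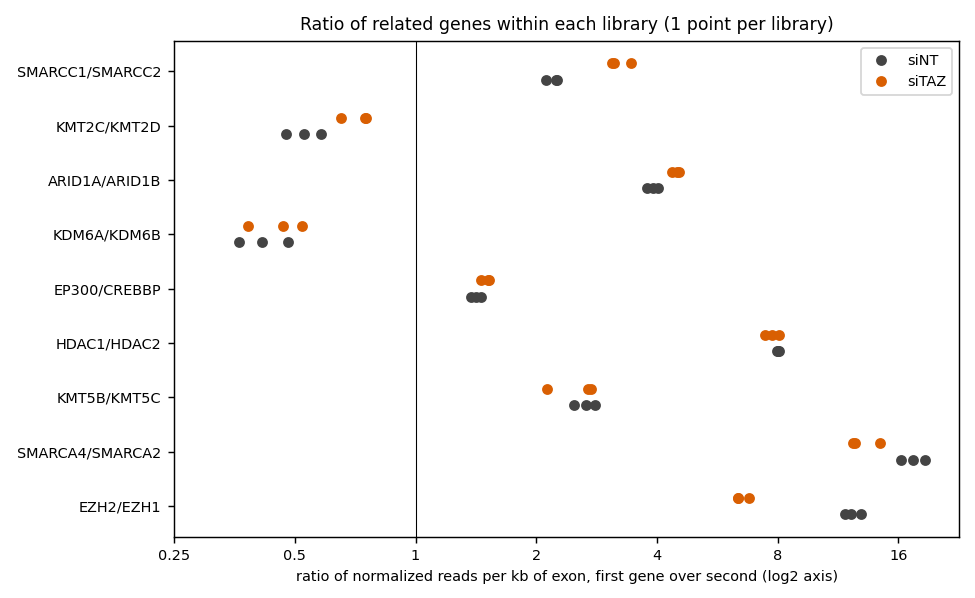
Ratio, for 9 of the 10 pairs, of the normalized reads per kilobase of exon of the first gene to those of the second in each library, on a log2 axis, with siNT in grey and siTAZ in orange. EZH2/EZH1 and SMARCA4/SMARCA2 lie lower and SMARCC1/SMARCC2 and KMT2C/KMT2D higher in all siTAZ libraries, while HDAC1/HDAC2 overlaps.

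Other chromatin genes, from 10 lists of partners and related enzymes, were called at 61.3% of 212 listed genes, 62 higher and 68 lower, with a median log2 fold change of 0.02. That share lies between the 55.8% of all genes tested and the 68.3% of genes with a mean of at least 1000, and the list counts that follow stand beside 28.3% higher and 27.5% lower over all genes. Among acetyltransferases and partners, 7 of 27 rose and 10 fell. KAT2B (PCAF) rose 2.72-fold, from 280.0 ± 21 to 761 ± 66, and HAT1, which acetylates new histone H4, fell 1.66-fold to 2309 ± 153. Subunits of the deacetylase complexes fell in 13 of 26 cases and rose in 8, with RCOR2 rising from 2007 ± 60.4 to 3015 ± 104 and SUDS3 1.43-fold lower. Histone chaperones, which hand histones to and from DNA, fell in 11 of 21 cases and rose in 1. They had a median of 4904 normalized reads, and at a mean of at least 1000 38.4% of all genes were lower and 30.0% higher. SUPT6H fell 1.45-fold, and the only one that rose was CABIN1, 1.30-fold. The chaperones called higher numbered 3 without siNT replicate 1, 3 without siTAZ replicate 1 and 4 without both.

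Polycomb genes outside the 4 above fell in 10 of 27 cases and rose in 6. PCGF3, a subunit of a variant complex 1, fell 1.78-fold to 1091 ± 41.1, and CBX6, a reader of H3K27 methylation, rose 1.99-fold to 16584 ± 1252. In the list of other demethylases, which also holds JARID2, 3 of 8 rose and 2 fell. HR, the hairless H3K9 demethylase, rose 3.42-fold, from 349 ± 55.2 to 1196 ± 79.9. JARID2, an accessory subunit of polycomb repressive complex 2 that is not in the polycomb counts here, fell 1.39-fold to 705 ± 4.3. Other methyltransferases rose in 12 of 29 cases and fell in 6, with PRDM15 1.66-fold higher and PRMT5 1.25-fold lower. Of the partners of the KMT2 enzymes 4 of 12 rose, with NCOA6 1.37-fold higher, and 2 fell, with HCFC1 1.13-fold lower. Only 1 of them fell without siNT replicate 3 or siTAZ replicate 2. Of the SWI/SNF subunits named otherwise, 4 of 18 rose and 4 fell, among them BCL7A (1.55-fold higher) and ACTB (1.46-fold lower). Other remodelers rose in 11 of 33 cases and fell in 8, with BAZ2B 1.76-fold higher and RUVBL1 1.37-fold lower. DNA methylation genes rose in 6 of 11 cases and fell in 2, with TET1, which oxidises methylcytosine, 2.05-fold higher at 547 ± 41.1 and TDG, which excises the oxidised bases, 2.46-fold lower at 638 ± 33.4. Without replicate 1 of both groups, 10 of the other polycomb genes and 7 of the other SWI/SNF subunits were called higher, and 4 partners of the KMT2 enzymes lower.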

How the data were processed

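Poly(A) RNA was sequenced in 3 siNT and 3 siTAZ libraries, grouped and numbered by their titles. The submitters' processing notes name FastQC, HISAT2, HTSeq, DESeq2 and hg19. The sources used here give no versions, annotation or strand setting. The deposited values are a signal: whole reads over a size factor. The smallest step in a library gave the worth of a single read, and 100% of values came out whole to within 0.001 read, from which counts were recovered. Symbols came from a table of Ensembl identifiers (15593 of 17211 genes) and GENCODE release 29 (1150), which also gave exon lengths and overlaps on GRCh38. The authors' annotation may differ.

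Limma 3.58.1 in R 4.3.3 was fitted with an intensity trend to log2(deposited value + 1) by group, for the 17204 genes whose mean reached 1, and p-values were Benjamini-Hochberg adjusted over all genes (threshold 0.05). Log2 changes (siTAZ over siNT) are on that scale and shrink those of low genes, while means, SDs and linear folds use the values as deposited. The fit was tested on simulated data. The count test edgeR 4.0.16, DESeq2 1.42.0 and limma voom on recovered reads, other scalings, filters and pseudocounts, a replicate block and leaving out libraries were the alternatives. EdgeR called 9630 genes.

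A result on 1 member and 1 pair is not reported here. The members and lists were chosen with earlier results of these data known. Members described with full values are the 15 with the smallest adjusted p and no overlap, the most changed called member of each role with a mean of at least 50 (or the most abundant), both genes of each pair, EZH2, EED, SUZ12, EP300, CREBBP, DOT1L and members with a mean under 50; others are examples. In each related list the gene with the smallest adjusted p in each direction is named.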

Additional observations from a re-analysis of the deposited data

How the results depend on the processing

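Over 15 alternative settings and 1 more chosen after seeing the data, which left out replicate 1 of both groups, the counts of members stayed within 1.5 times the reported 30 higher and 15 lower. They ran from 25 to 29 higher and 14 to 16 lower without single libraries, and were 38 and 12 with total count scaling. The called share of all genes ran from 49.6% to 56.2% without single libraries, and total count scaling gave 5561 higher and 4046 lower, against 4874 and 4730, with a median log2 change of 0.05. No called member reversed its sign. Of the 45 called members, 33 were called in every alternative that tested them, and 12 lost the call in at least 1, among them SIRT3, KDM1A, SMARCA1, SUZ12, KMT2E, HDAC3, HDAC9, EZH2, ARID1A, KMT2A and KDM5C. Of the 36 others, 22 passed in none. The rest passed in at least 1: ARID5A, BRD1, BRD2, EP300, HDAC2, HDAC7, KDM2A, KDM4B, KDM4C, KMT2C, KMT5B, SIRT6, SMARCA4 and SMARCB1. With the replicate block 23 members were higher and 12 lower, and all genes called went from 9604 to 8701. The replicate numbers showed no sign of pairing. Deviations from the group means correlated by -0.14, -0.08 and 0.02 between libraries of the same number. Between libraries of different numbers they correlated by -0.10 to 0.15. Whether the libraries were prepared in pairs cannot be settled by these correlations. The KMT5B to KMT5C ratio changed from -0.08 to 0.0353 on the log2 scale without siTAZ replicate 1, and lay between -0.15 and 0.0353 over the fits without single libraries. The pair KMT2A and KMT2B was not run, because KMT2B was not matched. With 3 libraries a group, a change as small as that of HDAC1 is within the interval of the fit.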
